A study of Homo sapiens with 6 samples.

Results

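The 43 genes described here lie in 1 stretch of the short arm of chromosome 19 (19p13), among others that are not listed, from RFX2 at 5993164 to the end of ZNF846 at 9786160 (GRCh38, RefSeq positions). They were chosen by the read counts of these same libraries, for a shift upward in the RNASEH2A knockout against the control. The difference between the groups is therefore given as a description, with no test. Of the 43 genes, 42 were in the table of 25330 counted gene symbols and 38 passed the filter on low counts, among 14199 that passed in all. The samples were MDA-MB-231 cells, an established human triple-negative breast cancer line; the labels give no treatment, and 1 batch for all libraries. There were 3 libraries of cells labelled CTRV2 control and 3 of cells labelled RNASEH2A KO, whose columns are named RN1. RNASEH2A encodes the catalytic subunit of RNase H2, which removes ribonucleotides from DNA. The RNA of each group was taken at different passages of the cells. The labels do not say whether the knockout is 1 clone or a pool, or what CTRV2 stands for.

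Genes that lie next to each other on a chromosome often have unrelated functions, while some families sit in arrays, and this stretch holds both. Its telomere-side part holds genes of RNA processing, mitochondria, membrane traffic and signalling. Its centromere-side part holds an array of C2H2 zinc finger genes, the largest family of transcription factors in humans, much of which sits in tandem arrays on chromosome 19. Many C2H2 proteins carry a KRAB domain, through which they recruit the corepressor TRIM28 and the histone methyltransferase SETDB1, and they are best known for silencing transposable elements.

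The label of a shared upward shift held for only part of the list. The 9 tested genes nearest the telomere, RFX2 to ZNF557, had a median log2 fold change (knockout minus control) of -0.04. The 20 from ARHGEF18 to MYO1F had a median of 0.39, and the 9 of the zinc finger cluster, ZNF317 to ZNF846, one of 0.76, or a ratio of 1.69. Over all 38 the median was 0.39, against 0.00 over all tested genes. In all, 29 of the 38 lay above 0 and 9 below.

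Library totals ran from 25419877 to 31596286 counts, and levels are given as CPM, a count relative to the library total scaled by TMM factors. RNASEH2A itself had 6 to 16 counts in every library of both groups, which leaves the genotype labels unchecked by its count. Of the 5 genes fixed as markers of this line, VIM, CD44 and AXL among them, all had a mean of at least 1 CPM, and of 6 luminal breast receptor and epithelial markers 4 did, with sums of 160 to 179 CPM, most of it ERBB2, while ESR1, which encodes the oestrogen receptor, had no count in any library. Markers of leukocytes summed to between 2.59 and 4.98 CPM, those of endothelium to between 2.49 and 5.13 CPM and those of fibroblasts to between 32.2 and 66.0 CPM over all libraries. Of the leukocyte markers PTPRC stood at 0 in the 3 knockout libraries. Knockout replicate 1 stood apart from the other knockouts, with a chi-square per degree of freedom of 37.0 and 24.0 against replicates 2 and 3, which gave 6.93 between them. Control replicate 1 also stood apart from the other controls, at 12.1 and 10.8 against replicates 2 and 3, which gave 2.48 between them. In bulk RNA a shift in the share of cells and one in RNA per cell cannot be told apart.

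Some promoters of the zinc finger cluster shared letters that few other promoters have, a property that played no part in the listing. RefSeq promoter sequences (GRCh38.p14) were found for 38 of the 43 genes, 9 of them in the cluster. The cyclic AMP response element, TGACGTCA, which reads the same on both strands, lay within 250 bases before the start of 4 of the 9 cluster genes and of 0 of the 29 other listed genes. Of 27305 promoters of the same length 1.8% held it. With the 50 bases after the start included, ZNF562 held it too, making 5 of 9, against 2.0% of all promoters and 2 of 198 ZNF genes elsewhere on chromosome 19 (ZNF543 and ZNF547). Of 195 ZNF genes on other chromosomes 9 held it, or 4.6%. Genes of an array can share ancestry, so the 5 promoters may not be independent of each other, and these shares are a description only. Shared ancestry of the promoters was not tested. The 80 bases before each start, on the minus strand and written 5′ to 3′, show the element in capitals, and ZNF699, the cluster gene with the highest fold change, is given as one without it.
ZNF266: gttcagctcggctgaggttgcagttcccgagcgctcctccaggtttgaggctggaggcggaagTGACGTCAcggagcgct
ZNF426: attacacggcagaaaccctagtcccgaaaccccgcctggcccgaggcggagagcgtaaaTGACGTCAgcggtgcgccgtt
ZNF121: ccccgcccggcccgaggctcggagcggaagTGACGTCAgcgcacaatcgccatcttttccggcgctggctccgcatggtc
ZNF561: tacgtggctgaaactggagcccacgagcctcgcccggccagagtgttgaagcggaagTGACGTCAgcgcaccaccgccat
ZNF562: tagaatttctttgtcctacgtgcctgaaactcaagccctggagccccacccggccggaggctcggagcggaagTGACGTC
ZNF699: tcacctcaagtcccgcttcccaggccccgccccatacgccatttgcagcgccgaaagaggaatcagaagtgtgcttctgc

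These stretches lie at chr19:9435574-9435653 for ZNF266, chr19:9538646-9538725 for ZNF426, chr19:9584505-9584584 for ZNF121, chr19:9621233-9621312 for ZNF561, chr19:9675101-9675180 for ZNF562 and chr19:9309839-9309918 for ZNF699. The element begins 17 bases before the start in ZNF266, 21 in ZNF426, 50 in ZNF121, 23 in ZNF561 and 7 in ZNF562, where it runs past the start by its last base. In ZNF266, ZNF121, ZNF561 and ZNF562 it stands directly after GAAG, a longer run searched for after the sequences had been seen. That run, on either strand, is held by 0.0952% of all promoters with the 50 bases after the start, or 26 of 27305. The other motifs searched on both strands, 250 bases before the start, set the cluster less far apart. The GC box GGGCGG was in 5 of its 9 promoters and 42.3% of all, CCAAT in 3 and 33.0%, the ETS core CCGGAAG in 2 and 8.8%, and TATAAA and the NRF1 motif (GCGCA followed at once by TGCGC) in 0, against 11.1% and 1.1%.

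Genes elsewhere with the same letters had medians near 0. The 5 cluster genes that hold TGACGTCA had log2 fold changes of 0.61 to 0.90, and 3 tested cluster genes with a promoter entry but without it, ZNF317, ZNF699 and ZNF846, had 0.35, 1.13 and 0.76. Outside the list, 358 tested genes hold the element and had a median of 0.01, with 14 called higher (3.9%) and 29 lower, where 5.88% and 6.22% of all tested genes were. The 17 tested genes outside the list that hold the run with GAAG before it had a median of 0.00 and ran from -0.21 to 0.71, and edgeR called 0 of them in either direction. A match of letters is not a bound site.

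In the zinc finger cluster all 3 knockout libraries lay above all 3 controls in each of the 9 tested genes, an ordering found at 16.1% of all tested genes. The cluster was among the genes that this same contrast chose, so nothing is read from that count. Summed over the cluster, levels were 203, 194 and 187 CPM in the controls and 292, 325 and 318 CPM in the knockouts, a ratio of 1.60. ZNF699 (9291140 to 9309838), a KRAB zinc finger gene, stood at 13.7, 14.5 and 12.4 CPM in the controls and at 29.7, 29.2 and 29.9 CPM in the knockouts. Its log2 fold change of 1.13 ± 0.09 (SE, n = 3 and 3) was the largest of the cluster, and its knockout values differed by less than 1 CPM.

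ZNF266 (9412429 to 9435573) stood at 27.7, 26.8 and 25.8 CPM in the controls and 40.2, 56.0 and 54.3 CPM in the knockouts, a log2 fold change of 0.90 ± 0.12. Its first knockout library lay below the other two but above every control. ZNF121 (9560329 to 9584504) went from 18.4, 13.3 and 16.2 CPM to 30.2, 25.3 and 27.0 CPM, or 0.79 ± 0.13. ZNF426 (9523223 to 9538645) went from 24.3, 22.2 and 19.4 CPM to 40.2, 36.0 and 35.4 CPM, or 0.76 ± 0.10. In both of these genes the first library was the highest of its group on each side.

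ZNF562 (9641807 to 9675100) had control values of 38.6, 32.9 and 33.5 CPM and knockout values of 53.6, 56.1 and 54.6 CPM, a log2 fold change of 0.64 ± 0.08. ZNF561 (9607329 to 9621232), its neighbour, had 21.8, 23.8 and 19.9 CPM and then 27.7, 38.3 and 34.1 CPM, or 0.61 ± 0.13. Both pairs of groups stayed apart, with the narrowest gap at the first knockout library. ZNF559 (9323772 to 9345871) had 10.3, 8.56 and 9.96 CPM and 12.8, 15.2 and 15.3 CPM, or 0.59 ± 0.12. ZNF846 (9748619 to 9786160) was the least expressed, with 1.72, 1.75 and 0.833 CPM and 2.90, 2.16 and 2.28 CPM, and its error was the widest of the cluster (0.76 ± 0.30).

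ZNF317 (9140397 to 9163413), a KRAB zinc finger gene at the telomere side of the array, had the smallest difference and the highest level per length of the cluster. It stood at 46.9, 50.5 and 48.9 CPM in the controls and 55.1, 66.2 and 65.8 CPM in the knockouts, a log2 fold change of 0.35 ± 0.09. ZNF177, the tenth gene, had 1 count in control replicate 1 and none in the other libraries. In GENCODE 29 it shares 90.8% of its exonic bases with the read-through gene ZNF559-ZNF177 on the same strand, as ZNF559 does for 12.9%, so the split of reads among these genes is uncertain.

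**Figure D1:**
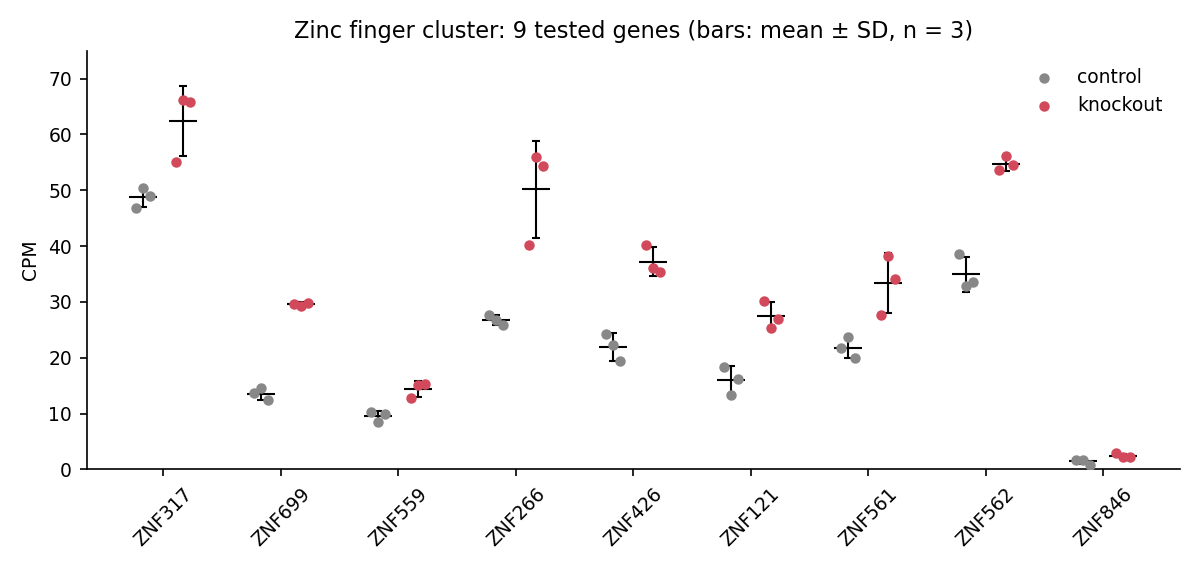
CPM of the 9 tested zinc finger cluster genes in each library, in order from the telomere, with control and knockout libraries as points and the mean ± SD of 3 libraries as bars. In every gene the 3 knockout points lie above the 3 control points, with the largest ratio for ZNF699.

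The 3 listed zinc finger genes that lie outside the array had a median log2 fold change of 0.25. ZNF414 stood at 15.9, 15.2 and 17.8 CPM in the controls and 21.4, 20.2 and 22.6 CPM in the knockouts, a log2 fold change of 0.39 ± 0.10 with groups that did not overlap. ZNF358 stood at 21.5, 23.2 and 22.7 CPM and 23.9, 27.0 and 29.3 CPM, or 0.25 ± 0.10, again without overlap but by less than 1 CPM at its nearest values. ZNF557, which lies in the telomere-side part, stood at 4.62, 4.14 and 3.37 CPM and 6.60, 2.84 and 4.31 CPM, and its groups overlapped (0.18 ± 0.28). The unlisted ZNF558, between MYO1F and the array, had a log2 fold change of 0.06 ± 0.14.

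Among 7 genes of transcription and RNA processing the median was 0.09. In 3 of them all knockouts lay above all controls, where 16.1% of all tested genes had that order. Nothing is read from that count, since this contrast chose the genes. KHSRP, which promotes decay of AU-rich mRNAs, had the highest level per length of the listed genes, with 609, 581 and 577 CPM in the controls and 531, 600.1 and 590.2 CPM in the knockouts. HNRNPM, a splicing regulator, had 482, 456 and 459.7 CPM and 440.0, 481 and 451 CPM, and ELAVL1, which encodes the mRNA-stabilising protein HuR, 238, 232 and 232 CPM and 221, 248 and 246 CPM. In all 3 genes the groups overlapped, with log2 fold changes of -0.04 ± 0.06 for KHSRP, -0.03 ± 0.06 for HNRNPM and 0.03 ± 0.06 for ELAVL1. HNRNPM and ELAVL1 lie inside the shifted stretch, between genes that stood higher. XAB2, of splicing and transcription-coupled repair, was at 0.44, SNAPC2, of the complex that transcribes small nuclear RNA genes, at 0.55, RFX2, a regulator of ciliary genes, at 0.33 and GTF2F1, a subunit of TFIIF, at 0.09 on the log2 fold change scale.

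Genes of mitochondria, peroxisomes and lipids were spread on both sides of 0, with 4 of 8 above it and a median of 0.07. PNPLA6, a lysophospholipase, stood at 156, 176 and 177 CPM in the controls and 172, 196 and 203 CPM in the knockouts (0.17 ± 0.08), and its groups overlapped. SLC25A23, a mitochondrial ATP-magnesium carrier, stood at 100.4, 120.5 and 125 CPM and 105, 93.9 and 103 CPM (-0.20 ± 0.09). CLPP, a protease of the mitochondrial matrix, stood at 98.1, 112 and 108 CPM and 87.0, 113 and 112 CPM (-0.03 ± 0.10). In these 3 genes control and knockout values were interleaved. PEX11G, of peroxisome division, was at 0.97 from a level of only 1.31 CPM, and CERS4, a ceramide synthase, at 0.39, both without overlap. TIMM44, of mitochondrial protein import, was at 0.17, ALKBH7, a mitochondrial dioxygenase, at -0.11 and ANGPTL4, a secreted inhibitor of lipoprotein lipase, at -0.43, each with overlapping groups.

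Membrane traffic, polarity and cytoskeleton genes had a median of 0.44 over 8 tested members. All knockouts lay above all controls in 5 of them, where 16.1% of all tested genes had that order. This contrast chose the genes, so nothing is read from that count. RAB11B, a GTPase of recycling endosomes, stood at 125, 122 and 122 CPM in the controls and 149.7, 171 and 174 CPM in the knockouts (0.42 ± 0.07). EVI5L, a Rab GTPase activating protein, stood at 98.6, 102 and 103 CPM and 122, 144 and 150.5 CPM (0.46 ± 0.08). MCOLN1, the lysosomal cation channel TRPML1, stood at 37.3, 49.5 and 46.3 CPM and 53.4, 70.7 and 78.1 CPM (0.60 ± 0.15). In all 3 the groups were apart, with knockout replicate 1 the lowest of the knockouts.

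STXBP2, a syntaxin-binding protein of regulated exocytosis, was at 0.77 on the log2 fold change scale, also without overlap, and MARCHF2, a membrane-bound ubiquitin ligase, at 0.35 with overlap. MYO1F, a myosin best known from leukocytes, had the largest fold change of all listed genes, at 1.40 ± 0.43, from 0.945, 0.246 and 0.436 CPM to 1.43, 1.58 and 1.35 CPM. Without control replicate 1 its log2 fold change was 2.09, and without control replicate 2 it was 1.05, so at this depth its size rested on single control libraries. CRB3, an apical polarity gene, had the lowest, at -0.95 ± 0.67, with 0.877, 0.210 and 0.357 CPM and 0.249, 0.0719 and 0.428 CPM in overlapping groups. Without knockout replicate 3 it was at -1.53. TRAPPC5, a subunit of the TRAPP tethering complex, was at -0.20 from under 1.1 CPM in every library.

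Of the signalling genes, ARHGEF18, a guanine nucleotide exchange factor, stood at 200.1, 199 and 199 CPM in the controls and 272, 273 and 297 CPM in the knockouts (0.49 ± 0.06). It shares 76.4% of its exonic bases in GENCODE 29 with another gene on its strand. MAP2K7, a kinase upstream of JNK, stood at 72.2, 73.8 and 72.6 CPM and 89.4, 95.5 and 102 CPM (0.39 ± 0.07). Both genes had control values within 2 CPM of each other, and no overlap. VAV1, an exchange factor of blood cells, stood at 0.405, 0.912 and 0.714 CPM and 0.249, 0.359 and 0.499 CPM, and its groups overlapped (-0.87 ± 0.44). DENND1C, a Rab exchange factor with 2 to 14 counts a library, KANK3 with 2 to 12 and TUBB4A, a tubulin gene, with 0 to 2 did not pass the filter, like ZNF177, and the metalloprotease gene ADAMTS10 was not analysed here.

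**Figure D2:**
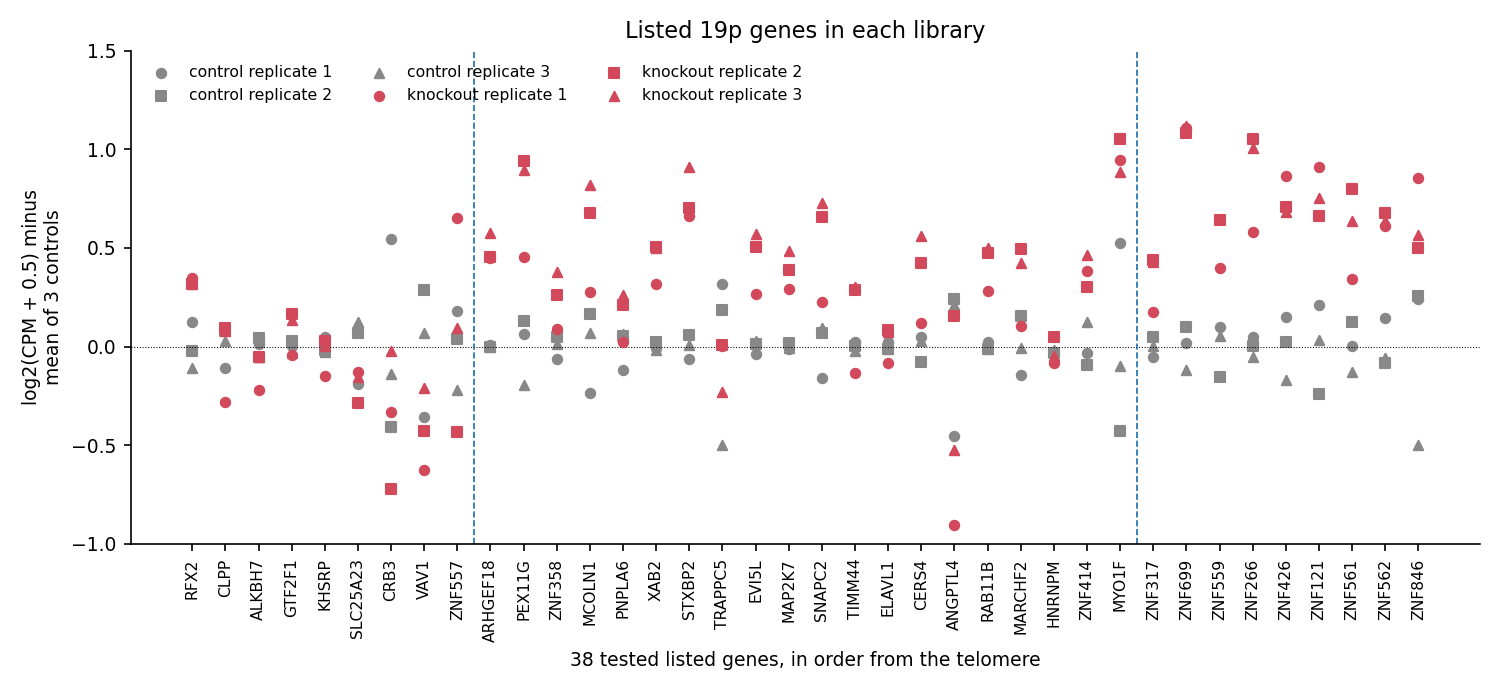
Each of the 38 tested listed genes in order from the telomere, with log2(CPM + 0.5) minus the mean of the 3 controls on the vertical axis, control libraries in grey and knockout libraries in red, and a marker shape for each replicate number. To the left of the first dashed line (RFX2 to ZNF557) the groups mix apart from RFX2, and to the right of the second (ZNF317 to ZNF846) every knockout lies above every control.

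Counted over the list, 23 of the 38 tested genes had all knockout values above all controls, where 16.1% of all tested genes did, and 0 had all below, where 17.4% did. By edgeR's quasi-likelihood test 18 were called higher at an adjusted p under 0.05 and 0 lower, where 5.88% of all tested genes were called higher and 6.22% lower. Since this contrast chose the genes, nothing is read from these counts. The number of calls was 10 without control replicate 3 and 9 without knockout replicate 3. Knockout replicate 1 was the lowest knockout in 22 of the 29 tested genes outside the cluster and in 5 of the 9 in it, where it was lowest in 40.4% of all tested genes. The median over the listed genes was 0.27 in that library, 0.43 in replicate 2 and 0.48 in replicate 3, and between -0.01 and 0.03 in the controls. The part of that library in these values was not tested, and without it the median log2 fold change was 0.45.

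The difference between the cluster and the other listed genes was 0.51 on the log2 fold change scale, as medians of 0.76 and 0.25. By library it was 0.51, 0.39 and 0.33 in the knockouts and 0.09, -0.00 and -0.05 in the controls. Set against only the listed genes from ARHGEF18 on, a choice made after the values were seen, it was 0.36. Membership of the family and position along the arm run together here. Past ZNF846 and before the shift ends, FBXL12 and UBL5, which are not zinc finger genes, had log2 fold changes of 0.92 and 0.58, within the range of the cluster, 0.35 to 1.13.

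The shift ended sharply on the centromere side. FBXL12, an F-box gene of ubiquitin ligases and the first tested gene past ZNF846, stood at 21.9, 22.8 and 25.8 CPM in the controls and 38.2, 45.1 and 50.5 CPM in the knockouts (0.92 ± 0.12). UBL5, a ubiquitin-like factor of splicing, stood at 103, 104 and 98.8 CPM and 133, 159 and 165 CPM (0.58 ± 0.09). In both genes, as in the cluster, the groups did not overlap. OLFM2 (9853718 to 9936515) was at 0.79 ± 0.48 from under 1 CPM, with overlapping groups.

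The next tested gene, the antiviral factor SHFL (10086317 to 10093243), stood at 6.28, 6.31 and 5.59 CPM and 5.36, 4.85 and 4.85 CPM (-0.27 ± 0.14). PPAN and P2RY11, whose annotated spans overlap, followed at -0.16 and -0.27. The turn from raised to lowered values thus fell within the 232.6 kb between the starts of OLFM2 and SHFL. With 5 tested genes on each side the largest fall in the median, from 0.76 to -0.25, was at that same gap. With 10 it was -0.96, between FBXL12 and UBL5, and with 20 it was -0.94, between P2RY11 and EIF3G, since medians over longer runs blur the place. From SHFL to RNASEH2A, 66 of 79 tested genes lay below 0, with a median of -0.24, and the 91 in the 5 Mb past RNASEH2A had a median of -0.26. RNASEH2A begins 2.95 Mb beyond the start of OLFM2.

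On the telomere side the step was smaller, at 0.51 against -0.96 on the centromere side. With 10 tested genes on each side the largest rise in the median was from 0.03 to 0.54, between ZNF557 and INSR. With 5 it was between ARHGEF18 and PEX11G, and with 20 between VAV1 and ZNF557. SH2D3A stood at -0.01, VAV1 at -0.87 and ZNF557 at 0.18 before the first of these gaps, and the insulin receptor gene INSR at 0.15, ARHGEF18 at 0.49 and PEX11G at 0.97 after it. At the outer limit of the list, RFX2 had 12.9, 11.6 and 10.9 CPM in the controls and 15.1, 14.8 and 14.8 CPM in the knockouts, while RANBP3, just outside it, was at -0.03. The 147 tested genes from there to the telomere had a median of 0.03, with 5 called higher (3.4%) and 13 lower. Of all tested genes 5.88% were called higher and 6.22% lower. Of the 13 lower calls in this flank 10 lay in the outermost 1 Mb, where the median over 26 tested genes was -0.28, about as low as past SHFL.

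By 1 Mb bins the median was 0.01 over the 14 tested genes from 6 to 7 Mb, 0.39 over 21 from 7 to 8 Mb, 0.35 over 11 from 8 to 9 Mb and 0.69 over 15 from 9 to 10 Mb. It was -0.27 over the 29 from 10 to 11 Mb. All 3 knockout libraries showed the turn, at 0.41, 0.70 and 0.68 in the bin from 9 to 10 Mb and -0.28, -0.30 and -0.25 in the next. The 8 to 9 Mb bin holds few genes and was the least even, at 0.10, 0.25 and 0.42.

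**Figure D3:**
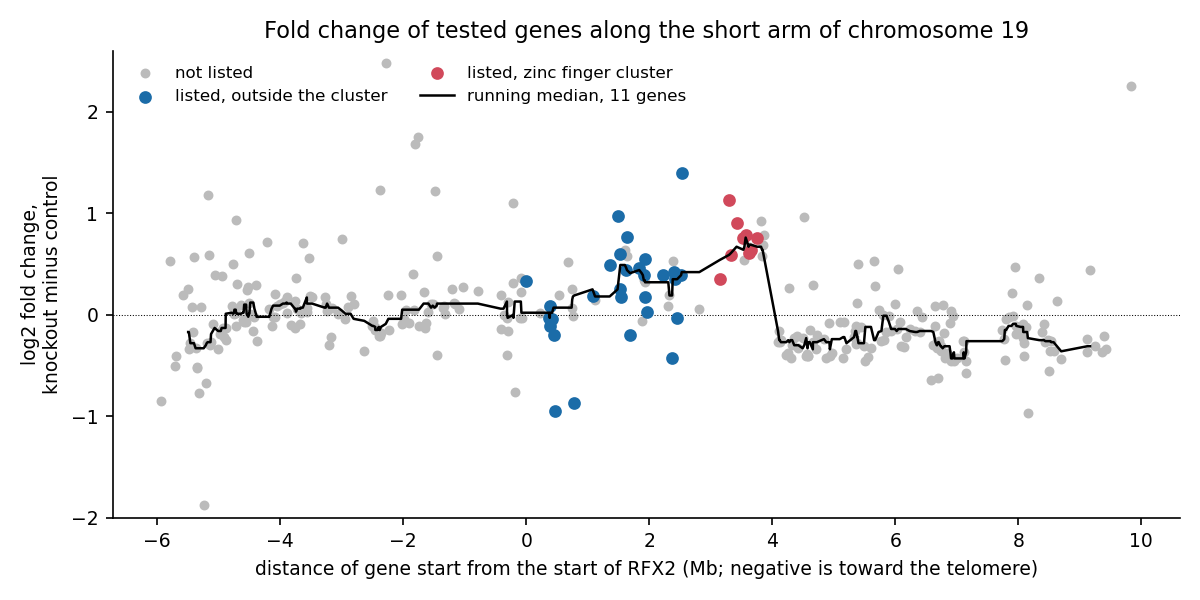
Log2 fold change (knockout minus control) of tested genes of the short arm of chromosome 19 against the distance of each gene start from that of RFX2 in Mb, with listed genes in colour and a running median over 11 genes as a line. The line is below 0 at the telomere end, near 0 over most of the way from there to the list, climbs across it to the zinc finger cluster and drops below 0 within the 232.6 kb between OLFM2 and SHFL.

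The 20 tested genes inside the span that are not listed had a median of 0.22, with 18 above 0. Of these edgeR called 1 higher, or 5.0%, where 5.88% of all tested genes were. All knockouts lay above all controls in 5 of the 20, an ordering found at 16.1% of all tested genes. They included the non-coding transcripts ZNF426-DT at 0.54 ± 0.30 and ZNF561-AS1 at 0.67 ± 0.26, next to the starts of the cluster genes they are named for. CAMSAP3, a microtubule minus-end protein and the called gene, was at 0.64 ± 0.15, while CD320 was at 0.09 ± 0.10 and the ribosomal protein gene RPS28 at 0.19 ± 0.08.

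Zinc finger genes elsewhere on the chromosome had lower medians than the cluster. The cluster was among the genes that this same contrast chose, so the order of these medians is a description only. Of 51 tested genes with a ZNF symbol on the rest of the short arm, edgeR, DESeq2 and limma-voom each called 0. In edgeR 5.88% of all tested genes were called higher and 6.22% lower. Of the 51, 7 had an unadjusted edgeR p under 0.05, and the median log2 fold change over the 51 was -0.02. Past OLFM2 lie 48 of the 51, and the 79 tested genes of all kinds from there to RNASEH2A had a median of -0.24. Of 141 on the long arm 7 rose, or 5.0% where 5.88% of all tested genes did, and 1 fell. Their median was 0.10, with 104 above 0, and 31 had all knockouts above all controls against 9 with all below. ZNF114 rose from 15.3 ± 1.94 to 38.7 ± 10.1 CPM (1.34 ± 0.18 SE, edgeR adjusted p = 0.00224), ZNF850 by 0.60 ± 0.12 (adjusted p = 0.0106) and ZNF841 by 0.66 ± 0.17 (adjusted p = 0.0322). ZNF584 fell by 0.37 on the log2 scale (adjusted p = 0.034). Over both arms 8 genes were called. Leaving out control replicate 1 gave 2 calls, control replicate 2 gave 1 and control replicate 3 gave 1, while leaving out the knockout replicates in order gave 14, 5 and 1.

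**Figure D4:**
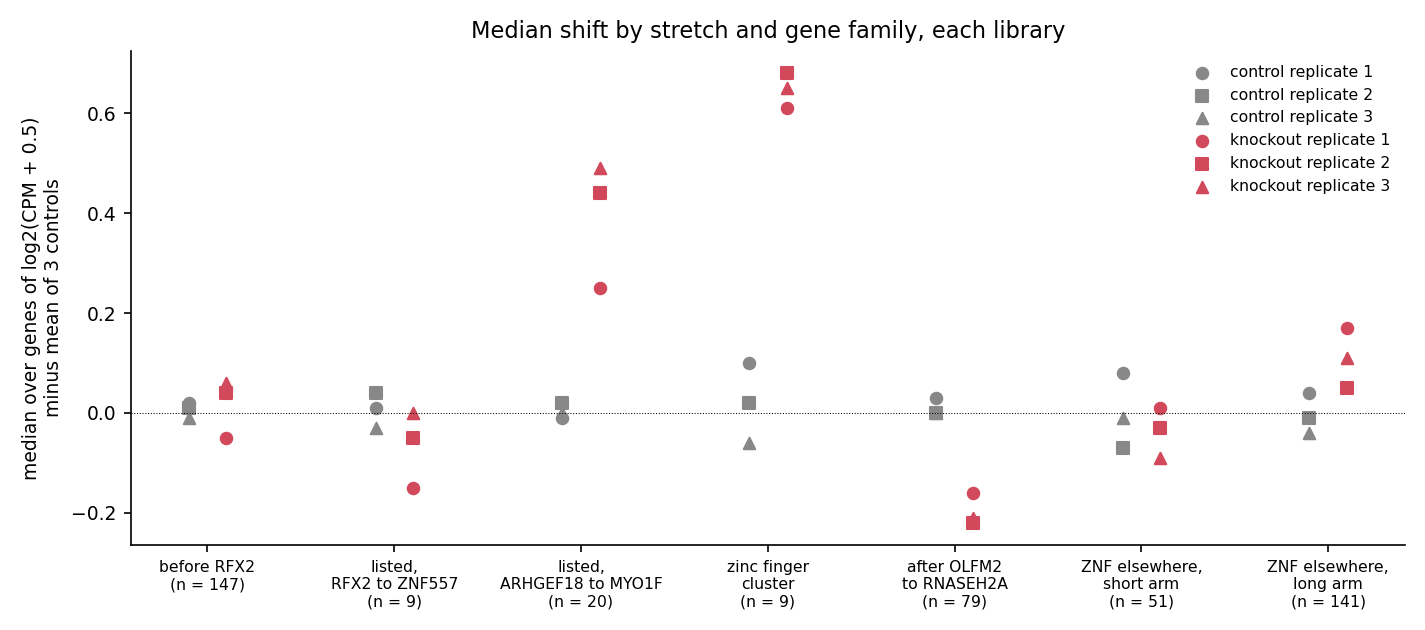
Median over the tested genes of each stretch or family of log2(CPM + 0.5) minus the mean of the 3 controls, 1 point for each library, with the number of genes under each label. Knockout points are highest for the zinc finger cluster, below 0 from the gap after OLFM2 to RNASEH2A, and near the controls for ZNF genes on the rest of the short arm. The listed genes, the cluster included, were chosen by this contrast.

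Of 23 corepressors and chromatin factors that work with KRAB zinc finger proteins, 1 rose, 1 fell and 21 did not pass, with a median of -0.05, where 12.1% of all tested genes were called in either direction. An unadjusted edgeR p under 0.05 was found for 6 of the 23. All knockouts lay below all controls in 5 of the 23 and above in 1, where 17.4% and 16.1% of all tested genes had these orders. CBX5, which encodes the heterochromatin protein HP1 alpha, rose from 143 ± 4.70 to 186 ± 16.6 CPM (0.38 ± 0.08 SE, edgeR adjusted p = 0.0125). DNMT1, the maintenance DNA methyltransferase, went from 426 ± 21.3 to 359 ± 14.7 CPM (-0.25 ± 0.06 SE, adjusted p = 0.0311). It lies at 10133346 to 10194953, in the lowered stretch just past SHFL, where EIF3G next to it was also at -0.25. TRIM28 was at 807 ± 21.6 and 736 ± 61.1 CPM (-0.13 ± 0.07 SE, adjusted p = 0.239) and SETDB1 at 21.4 ± 0.995 and 20.5 ± 0.273 CPM (-0.06 ± 0.09 SE, adjusted p = 0.716). Against these 2 calls, leaving out control replicate 1 gave 1 call, control replicate 2 gave 0 and control replicate 3 gave 0. Leaving out the knockout replicates in order gave 5, 1 and 1.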

How the data were processed

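Poly-A libraries, strand-specific per the labels' protocols, were aligned with STAR version 2 to GRCh38 after FastQC, according to the submitters' processing notes. Which tool, strand setting and annotation gave the counts is not given in the sources used. The deposited table holds whole-number raw read counts, per the file headers and values. A deposited table of log2 CPM values, whose filter and scaling by the authors are not stated, served for an alternative only.

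Genes were kept by filterByExpr, scaled by TMM and fitted with edgeR 4.0.16 (quasi-likelihood F test, R 4.3.3, two-sided) over all 6 samples with no covariate, with Benjamini-Hochberg adjustment over 14199 genes and calls at 0.05. The SE is the log2 fold change divided by the square root of F. The fit was tested on simulated counts. P-values measure the spread between passages within each group, and not a spread between clones or lines, which these libraries do not show. Positions come from RefSeq (GRCh38.p14), where 24974 of 25330 symbols matched by name and 129 by a synonym, and exon lengths and overlaps from GENCODE 29. An edge is the gap where the medians of the 10 tested genes before and after differ most, within 2 Mb of the outermost listed gene. Per-library shifts use log2(CPM + 0.5).

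The members, gene lists, tests and rule for named genes were chosen with earlier results of these data known. Per-library values are given for the 3 members of highest mean CPM in each role, the largest and smallest fold change, the tested cluster and genes at the edges. RFX2, ZNF558, the genes from SHFL to EIF3G and the unlisted genes inside the span were added after their values were seen. A gene near the edge is not reported here. Members of the other roles are given by fold change. Up to 4 called genes are named per other list. Chi-square per degree of freedom between replicates was at least 2.48, so all 6 libraries were kept. Alternatives were DESeq2 1.42.0, limma-voom and limma 3.58.1 on the deposited values, other scalings and filters, the replicate number as a block, other window sizes and leaving out each library.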

Additional observations from a re-analysis of the deposited data

How the results depend on the processing

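The median of the listed genes, the count of non-overlapping genes and the step at the centromere side kept their direction and stayed within the replicate spread, or within 1.5 times for the count, under the alternatives run. Without single libraries the median ran from 0.34 to 0.45. No listed gene that was called turned its sign, and 5 of 528 gene values moved by over 1 SD. The difference between cluster and other listed genes was 0.408 with no filter on low counts, 0.414 when genes under 1 CPM on average were dropped, 0.362 against listed genes from ARHGEF18 on and 0.357 among those of at least 10 CPM, both of these latter settings chosen after seeing the data, and 0.358 to 0.564 without single libraries. With no filter the unlisted genes inside the span had a median of 0.357 and the centromere-side flank -0.164. The flank ran from -0.232 to -0.199 without single libraries, the telomere-side step from 0.403 to 0.746, calls among listed genes from 9 to 24, corepressor calls from 0 to 5 and calls among ZNF genes elsewhere from 1 to 14. Calls over all genes, 1718, ran from 524 to 3430.

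Same-numbered libraries deviated together at r = 0.316, 0.139 and 0.086, so the numbers were not taken as pairs, and not every library correlated best with its own number. With the replicate block 3099 genes were called, with 22 listed genes, 5 corepressor genes and 16 ZNF genes elsewhere. The cause of these movements was not tested. Depth limits the genes under about 1 CPM, where 3 counts equal 0.0934 to 0.119 CPM, which covers counting error only.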

Other observations

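Across the 29 tested listed genes from ARHGEF18 on, the log2 fold change had a Spearman correlation of -0.41 with the level per kb of exon and of 0.18 with exon length. Over the 26 of these with a promoter entry it was -0.42 with the GC share of the 250 bases before the start. The cut at ARHGEF18 was chosen after the values were seen. Over all 38 tested listed genes the correlation was -0.23 with the level per kb and 0.29 with exon length. With the GC share it was -0.32 over 33 genes. With start position it was 0.59 over the 38 and 0.33 over the 29. These are descriptions across genes, which share libraries and position and are not independent replicates. The tested cluster genes had a median level of 3.92 CPM per kb, lowest at 0.496 in ZNF846 and highest in ZNF317, and the 29 other tested listed genes one of 16.4 CPM per kb, from 0.117 in MYO1F to 127 in KHSRP, so the cluster combined low levels with the higher fold changes. The cluster promoters had a median GC share of 61.6% and 15 CG pairs, the other listed promoters 65.6% and 19, and all promoters 58.0% and 11.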
